A study of Homo sapiens with 9 samples.

Results

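Classical genes of epithelial to mesenchymal transition were followed across the whole experiment by their names in the deposited gene table, namely SNAI1, SNAI2, ZEB1, ZEB2, TWIST1, CDH2, VIM, CD44, AXL and FN1. They are 10 of the 58929 genes in the table, and 9 of them passed the filter on low counts that left 16065 genes for testing. The cells were FaDu, an established line of head and neck squamous cell carcinoma (HNSCC) labelled as wild type, grown as 1 line in culture with no stromal or immune cells added. They were treated with YKL-5-124 at 250 nM, with samuraciclib at 250 nM or with the vehicle DMSO, with 3 libraries in each group and 9 in all. Both compounds inhibit CDK7, a kinase that activates cell cycle kinases and phosphorylates RNA polymerase II, and the study describes YKL-5-124 as a covalent inhibitor. The treatment protocol gives 48 h of exposure and the design text of the series gives 72 h, so the time is uncertain between these.

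In epithelial to mesenchymal transition, epithelial cells loosen their junctions and take up features of migratory mesenchymal cells. Transcription factors of the Snail, ZEB and Twist families bind E-box sequences and repress epithelial genes such as the E-cadherin gene CDH1, while N-cadherin, vimentin, fibronectin, CD44 and the receptor AXL are widely used as markers of the mesenchymal side. Head and neck carcinomas are known for a partial form of this program, in which SNAI2 and matrix genes are expressed while epithelial genes are kept.

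The libraries held 18264302 to 24613892 counts with YKL-5-124, 19346587 to 22111350 with samuraciclib and 18096180 to 28018126 with DMSO. Values per library are given as CPM, which are counts scaled to a common library size with TMM factors. These are relative levels, so a change in RNA per cell shared by most genes would not show. Genes described as rising or falling did so relative to the other genes. A gene was called higher or lower where edgeR's quasi-likelihood test gave an adjusted p under 0.05 and its log2 fold change passed 0.5 in either direction. In the library of YKL-5-124 2, samuraciclib 2 and DMSO 3 the 7SL RNA gene RN7SL2 was at 24.9 to 59.3 CPM, against 696 to 981 CPM in the other 6 libraries, so member counts are also given for those 6. RNA was taken from whole cultures, in which fewer cells of a type and less RNA per cell cannot be told apart.

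The cells were of the labelled type. The 10 squamous epithelial markers summed to 6152 to 6545 CPM with YKL-5-124, 6805 to 7082 CPM with samuraciclib and 5962 to 6310 CPM with DMSO, with none at 0. Of 10 fibroblast markers, 9 were under 1 CPM in each group, LUM was at 0 in all of them, and the sums were 3.94 to 5.78 CPM with YKL-5-124, 4.87 to 6.17 CPM with samuraciclib and 3.81 to 5.43 CPM with DMSO. The smooth muscle and pericyte markers summed to 4.54 to 5.78 CPM with YKL-5-124, 4.99 to 5.52 CPM with samuraciclib and 4.26 to 5.04 CPM with DMSO, and 6 leukocyte markers to 3.45 to 4.18 CPM with YKL-5-124, 2.57 to 3.00 CPM with samuraciclib and 2.46 to 3.24 CPM with DMSO. The 5 endothelial markers summed to 25.6 to 28.4 CPM with YKL-5-124, 20.0 to 23.8 CPM with samuraciclib and 29.99 to 32.1 CPM with DMSO, nearly all of it CDH5, with KDR and TEK at 0. These sums were small beside CD44 and AXL, but COL1A1 (5.03 CPM with YKL-5-124, 5.37 CPM with samuraciclib and 4.59 CPM with DMSO) and MYH11 (2.19 CPM with YKL-5-124, 2.16 CPM with samuraciclib and 2.08 CPM with DMSO) lay above the levels of VIM, ZEB1 and ZEB2.

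The members fell into a well expressed and a barely expressed set. Per kilobase of gene model, mean levels in DMSO were 70.8 CPM for AXL, 46.6 for CD44, 29.2 for SNAI2, 8.09 for CDH2, 4.77 for TWIST1, 3.08 for FN1, 1.16 for SNAI1, 0.244 for VIM, 0.128 for ZEB1 and 0.00242 for ZEB2. No neighbours in this order had overlapping library values in DMSO. Against all tested genes, the mean CPM without division by length stood at percentile 97.2 for CD44 and 96.2 for AXL, and at percentile 12.9 for VIM and 10.3 for ZEB1. Vimentin, the intermediate filament protein most used to mark mesenchymal cells, was thus among the least abundant messages tested, and the name mesenchymal covers the group only in part. With both inhibitors the order was the same except that FN1 stood above TWIST1. Those 2 genes overlapped with YKL-5-124 (4.83 to 5.23 CPM per kilobase for FN1, 3.56 to 4.88 for TWIST1) and lay just apart with samuraciclib (5.39 to 5.57 for FN1, 4.35 to 5.36 for TWIST1). VIM and ZEB1 overlapped with samuraciclib. The gene model counts every annotated exon and can be longer than the message, 17315 bases for FN1, which lowers a level per kilobase.

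**Figure D1:**
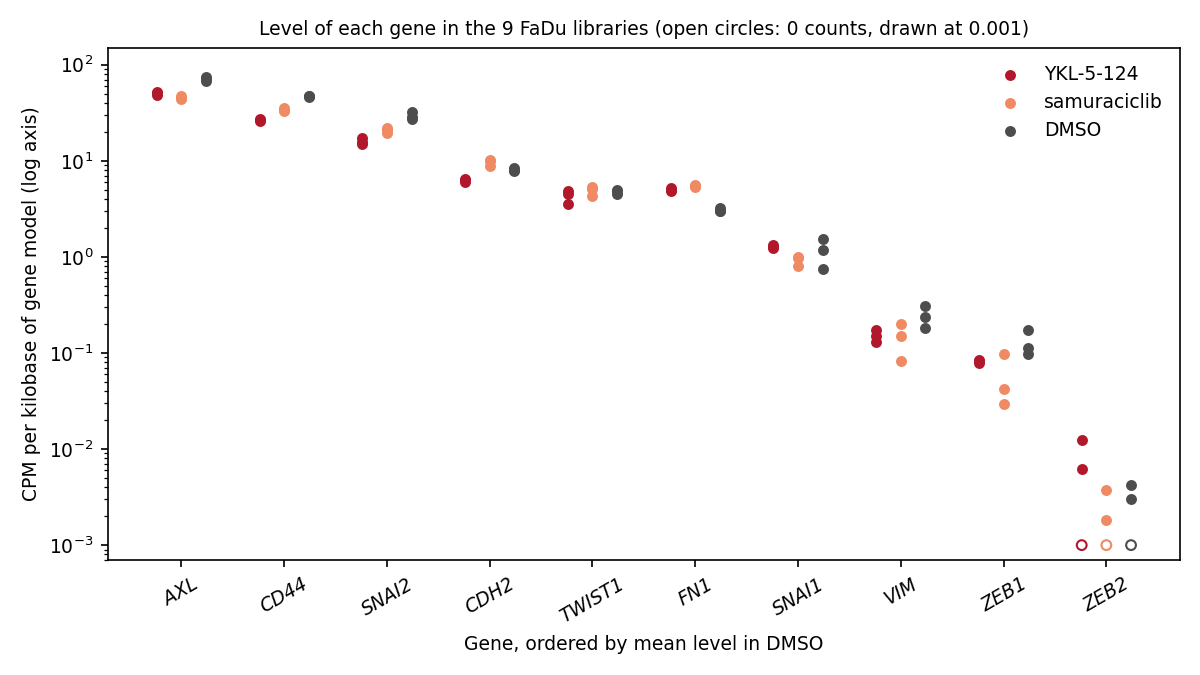
Level of each of the 10 members in CPM per kilobase of gene model (log axis), with a point for every library of the YKL-5-124, samuraciclib and DMSO groups and open circles for libraries at 0 counts, drawn near the foot of the axis. AXL, CD44 and SNAI2 lie above 10 in every library, while VIM, ZEB1 and ZEB2 lie below 1, and FN1 passes TWIST1 in mean level with both inhibitors.

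SNAI2 was the most abundant of the 5 transcription factors. It encodes Slug, a zinc finger repressor of the Snail family that is also expressed in basal squamous epithelium (ENSG00000019549, GRCh38 chromosome 8, 48917604 to 48921740, minus strand). Its levels were 51.3, 59.0 and 53.3 CPM with YKL-5-124, 74.4, 71.4 and 65.9 CPM with samuraciclib, and 96.2, 92.7 and 109 CPM with DMSO. The 3 groups did not overlap, and YKL-5-124 was lowest. SNAI2 fell by 0.86 ± 0.068 (log2, SE) with YKL-5-124 against DMSO, a 1.82-fold decrease (edgeR, adjusted p = 8.89e-09). With samuraciclib against DMSO the log2 fold change was -0.49 ± 0.067 (adjusted p = 9.93e-06), just inside the fold threshold. It passed the threshold without samuraciclib 1 (-0.53), samuraciclib 2 (-0.501), DMSO 1 (-0.52) or DMSO 2 (-0.54), so samuraciclib lies at the boundary of a call.

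SNAI1 encodes Snail, the founding member of the same family and a short-lived protein (ENSG00000124216, chromosome 20, 49982999 to 49988886, plus strand). It had 2.13, 2.08 and 2.24 CPM with YKL-5-124, 1.64, 1.37 and 1.70 CPM with samuraciclib, and 1.26, 2.61 and 2.00 CPM with DMSO. The DMSO values ran from below to above all inhibitor libraries, with an SD of 0.082 CPM with YKL-5-124, 0.175 CPM with samuraciclib and 0.676 CPM with DMSO. The log2 fold changes against DMSO were 0.13 ± 0.24 for YKL-5-124 (edgeR, adjusted p = 0.685) and -0.33 ± 0.25 for samuraciclib (adjusted p = 0.296). Without DMSO 1 the value for YKL-5-124 was -0.089, so that SNAI1 has no fixed direction there.

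TWIST1, a basic helix-loop-helix factor that directs mesoderm formation (ENSG00000122691, chromosome 7, 19020991 to 19117672, minus strand), did not separate the groups. It had 9.26, 7.25 and 9.92 CPM with YKL-5-124, 10.3, 8.84 and 10.9 CPM with samuraciclib, and 10.1, 9.16 and 9.83 CPM with DMSO. The libraries of all 3 groups overlapped. The log2 fold changes against DMSO were -0.15 ± 0.13 for YKL-5-124 (adjusted p = 0.343) and 0.04 ± 0.12 for samuraciclib (adjusted p = 0.81), the last of which was -0.019 without samuraciclib 3.

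The ZEB factors, zinc finger and homeobox repressors held in check by the miR-200 family, were near the detection limit. ZEB1 (ENSG00000148516, chromosome 10, 31318495 to 31529814, plus strand) had 14, 18 and 14 counts with YKL-5-124, 18, 8 and 5 counts with samuraciclib, and 26, 16 and 26 counts with DMSO. In CPM these were 0.728, 0.705 and 0.681 with YKL-5-124, 0.842, 0.365 and 0.257 with samuraciclib, and 1.49, 0.852 and 0.979 with DMSO. Each inhibitor library was below each DMSO library, by as little as 0.842 CPM in samuraciclib 1 beside 0.852 CPM in DMSO 2. ZEB1 was called lower with samuraciclib (log2 fold change -1.14 ± 0.40, adjusted p = 0.0261) and had -0.63 ± 0.37 with YKL-5-124 (adjusted p = 0.172). The samuraciclib call did not hold without samuraciclib 2 (-0.96, adjusted p = 0.0955), samuraciclib 3 (-0.85, adjusted p = 0.113) or DMSO 1 (-0.90, adjusted p = 0.12), and the value was -1.78 without samuraciclib 1. It did not hold in the 6 libraries with high 7SL RNA either (-1.05, adjusted p = 0.102). ZEB1-AS1, an antisense gene, had 27 to 69 counts per library, more than ZEB1 itself. Its model overlaps 0.924% of the ZEB1 span with introns included. That is not a share of the counted gene model of ZEB1, which has 8650 bases. The pseudogene SPTLC1P1 overlaps ZEB1 on the same strand and had 2 to 6 counts per library. The strand setting of the counting is not given in the sources used here.

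ZEB2 (ENSG00000169554, chromosome 2, 144364364 to 144524583, minus strand) had 6, 4 and 0 counts with YKL-5-124, 2, 1 and 0 with samuraciclib, and 0, 2 and 2 with DMSO. It did not pass the filter, which asks for about 10 counts at the median library or 0.509 CPM. With the libraries of a group pooled, the ratio of YKL-5-124 to DMSO was 2.40 (10 and 4 counts), with an exact 95% counting interval of 0.693 to 10.5. That of samuraciclib to DMSO was 0.75 (3 and 4 counts, interval 0.11 to 4.44). These intervals cover counting error only, and a difference was not detectable at this depth.

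CD44 was the most abundant member by CPM. It encodes the hyaluronan receptor used to mark stem-like carcinoma cells (ENSG00000026508, chromosome 11, 35138870 to 35232402, plus strand). Its levels were 265, 275 and 256 CPM with YKL-5-124, 340.0, 353 and 328 CPM with samuraciclib, and 464, 467 and 468 CPM with DMSO. The groups did not overlap and stood in the order found for SNAI2. CD44 fell by 0.81 ± 0.047 on the log2 scale with YKL-5-124 against DMSO, 1.76-fold (adjusted p = 1.41e-10). With samuraciclib against DMSO the change was -0.45 ± 0.047 (adjusted p = 3.6e-07), a 1.37-fold difference inside the fold threshold.

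AXL encodes a receptor tyrosine kinase of the TAM family, bound by the ligand GAS6 and known in HNSCC for drug resistance (ENSG00000167601, chromosome 19, 41219203 to 41261766, plus strand). Its levels were 263, 269.9 and 250.4 CPM with YKL-5-124, 231, 245 and 227 CPM with samuraciclib, and 349.9, 362 and 383 CPM with DMSO. Here samuraciclib was lowest, and none of the 3 groups overlapped. AXL fell by 0.64 ± 0.051 on the log2 scale with samuraciclib against DMSO, 1.56-fold (adjusted p = 1.39e-08). With YKL-5-124 against DMSO it had -0.48 ± 0.050 (adjusted p = 3.05e-07), a 1.40-fold difference inside the threshold, which passed it without YKL-5-124 2 (-0.51) or DMSO 1 (-0.52).

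FN1 was the only member called higher against DMSO. It encodes fibronectin, a matrix glycoprotein bound by integrins (ENSG00000115414, chromosome 2, 215360440 to 215436172, minus strand). Its levels were 90.5, 83.7 and 85.1 CPM with YKL-5-124, 96.4, 93.8 and 93.4 CPM with samuraciclib, and 52.0, 52.2 and 55.9 CPM with DMSO. Every inhibitor library stood well above the DMSO libraries. FN1 rose by 0.69 ± 0.052 on the log2 scale with YKL-5-124 against DMSO, 1.62-fold (adjusted p = 4.57e-09), and by 0.82 ± 0.052 with samuraciclib against DMSO, 1.77-fold (adjusted p = 9.65e-10).

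CDH2, the gene of N-cadherin, the cell adhesion molecule that replaces E-cadherin in many mesenchymal cells (ENSG00000170558, chromosome 18, 27950966 to 28177446, minus strand), lay on opposite sides of DMSO with the 2 inhibitors. It had 31.3, 32.2 and 29.5 CPM with YKL-5-124, 49.0, 43.9 and 50.6 CPM with samuraciclib, and 39.0, 39.6 and 41.6 CPM with DMSO. The libraries of the 3 groups did not overlap. Neither difference from DMSO passed the fold threshold, with log2 fold changes of -0.37 ± 0.067 for YKL-5-124 (adjusted p = 0.000168) and 0.25 ± 0.065 for samuraciclib (adjusted p = 0.00399).

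VIM (ENSG00000026025, chromosome 10, 17228259 to 17237593, plus strand) had 17, 17 and 16 counts with YKL-5-124, 9, 17 and 20 with samuraciclib, and 28, 23 and 25 with DMSO. In CPM these were 0.885, 0.666 and 0.778 with YKL-5-124, 0.421, 0.775 and 1.03 with samuraciclib, and 1.60, 1.23 and 0.942 with DMSO. The YKL-5-124 libraries lay below DMSO, and samuraciclib 3 lay among the DMSO libraries. The log2 fold changes against DMSO were -0.68 ± 0.34 for YKL-5-124 (adjusted p = 0.108) and -0.74 ± 0.34 for samuraciclib (adjusted p = 0.0891). Without samuraciclib 3 the samuraciclib value was -1.03 (adjusted p = 0.0456) and passed the test, and without samuraciclib 1 it was -0.457 (adjusted p = 0.328), so its size depends on single libraries. VIM-AS1 overlaps 18.5% of the VIM span on the other strand and had 2 to 12 counts per library.

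**Figure D2:**
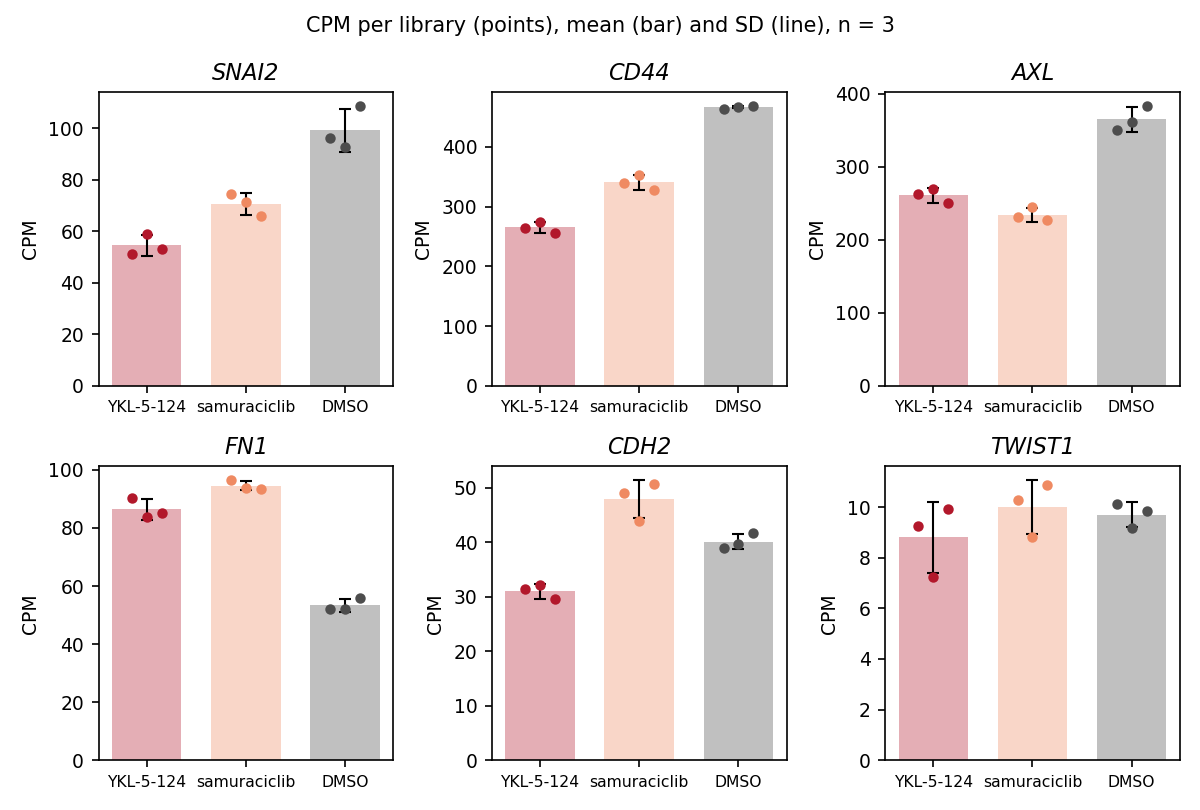
CPM of the 6 members SNAI2, CD44, AXL, FN1, CDH2 and TWIST1, each in its own panel with YKL-5-124 and samuraciclib to the left of DMSO, points for libraries, bars for the group mean and lines for the SD (n = 3). CD44 and SNAI2 are lowest with YKL-5-124, AXL is lowest with samuraciclib, FN1 is higher with both, CDH2 lies below DMSO with YKL-5-124 and above it with samuraciclib, and TWIST1 overlaps in all groups.

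Counted over the group, YKL-5-124 against DMSO called 1 of the 9 tested members higher (FN1) and 2 lower (CD44 and SNAI2), while 11.9% of all tested genes were called higher, 9.93% lower and 21.8% in either direction. Libraries did not overlap for 7 of the 9, against 56.8% of all tested genes. The members' median log2 fold change was -0.48, beside 0.014 over all tested genes. Samuraciclib against DMSO called 1 higher (FN1) and 2 lower (AXL and ZEB1), with 8.17% of all tested genes called higher, 9.55% lower and 17.7% in either direction. Libraries did not overlap for 6 of the 9 members, against 52.9% of tested genes, and the median was -0.45 beside 0.0012 over all genes. By the adjusted p alone, 5 of the 9 members passed with YKL-5-124 against DMSO, where 49.3% of all tested genes did, and 6 of the 9 with samuraciclib, where 44.1% did. In the 6 libraries with high 7SL RNA the counts were 1 higher and 2 lower with YKL-5-124, and 1 higher and 1 lower with samuraciclib. The members named here moved in both directions, and with 9 genes a count close to these background shares is not a result about the group. The comparisons share the DMSO libraries, so their values stand side by side and are not independent of each other.

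**Figure D3:**
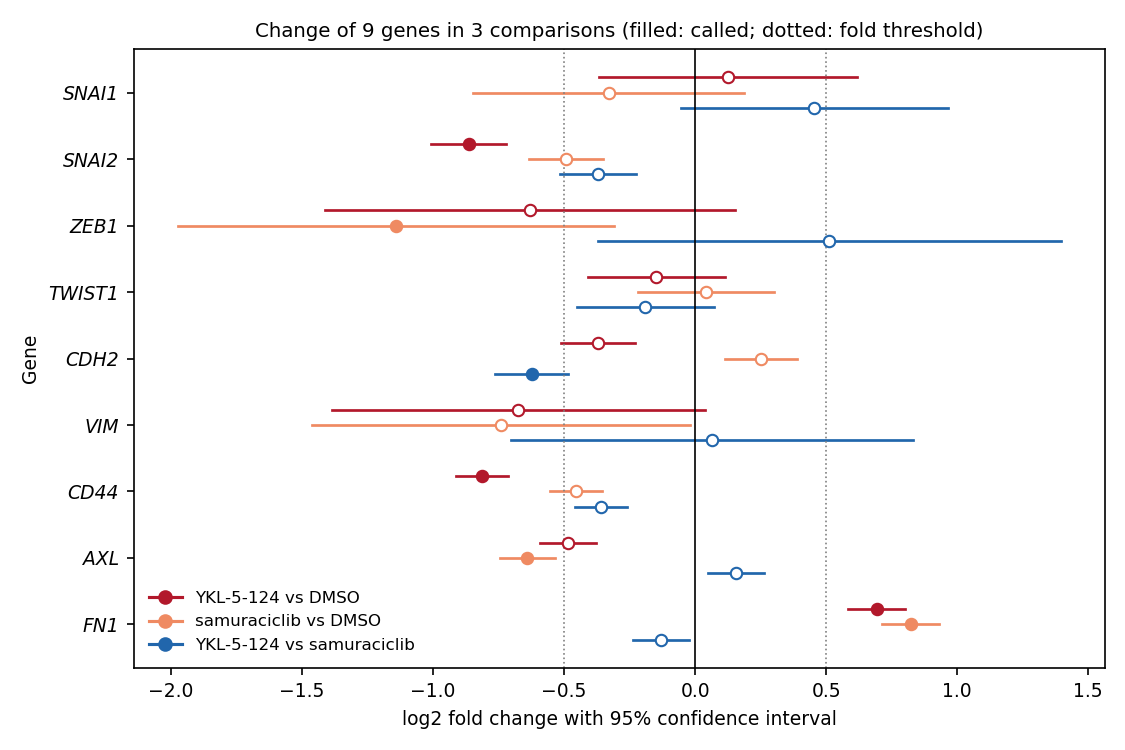
Log2 fold change of the 9 tested members with 95% confidence intervals in each of the 3 comparisons, with filled points for called genes and dotted lines at the fold threshold of 0.5. FN1 is the only member called higher, at 0.69 with YKL-5-124 and 0.82 with samuraciclib against DMSO, and the intervals of ZEB1, VIM and SNAI1 are the widest.

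The inhibitors were compared with each other at the same dose of 250 nM. CDH2 was the 1 member called, lower with YKL-5-124 than with samuraciclib by 0.62 ± 0.066 on the log2 scale (95% interval -0.76 to -0.48, adjusted p = 4.07e-06), which is 1.54-fold. Of all tested genes 4.46% were called higher, 2.46% lower and 6.92% in either direction in this comparison, and 6 of the 9 members had libraries that did not overlap, against 38.7% of tested genes. By the adjusted p alone 4 of the 9 passed, against 24.9% of all tested genes. The members' median was -0.13 beside 0.0079 over all genes, and CDH2 was called in the 6 libraries as well, at -0.71. For SNAI2 and CD44 the differences were -0.37 ± 0.069 (interval -0.52 to -0.23, adjusted p = 0.000813) and -0.36 ± 0.047 (interval -0.46 to -0.26, adjusted p = 3.13e-05), lower with YKL-5-124 in every library and inside the fold threshold. For AXL it was 0.16 ± 0.051 (interval 0.050 to 0.26, adjusted p = 0.0308), higher with YKL-5-124. For FN1 it was -0.13 ± 0.050 (interval -0.24 to -0.024, adjusted p = 0.0674). The calls against DMSO that only 1 inhibitor reached, SNAI2 and CD44 with YKL-5-124 and AXL and ZEB1 with samuraciclib, thus stand beside direct differences that were not called (0.51 ± 0.42 for ZEB1, adjusted p = 0.412). For SNAI1 the interval was -0.053 to 0.96, for TWIST1 -0.45 to 0.071, for ZEB1 -0.37 to 1.40 and for VIM -0.70 to 0.83, and the last pair leaves room for large differences either way. The pooled ZEB2 counts gave a ratio of YKL-5-124 to samuraciclib of 3.20 (10 and 3 counts, interval 0.825 to 18.1).

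AXL and FN1 moved in opposite directions with samuraciclib, and the stretch just before the start of each gene is shown for that contrast. Both were taken from RefSeq promoters on GRCh38.p14 and limited to the bases outside the deposited gene model. The AXL stretch is chr19:41218973-41219202 on the plus strand and covers positions -250 to -21 from the RefSeq start, and the FN1 stretch is chr2:215436173-215436318 on the minus strand and covers positions -250 to -105. Capitals mark an E-box CAGGTG and GC boxes GGGCGG in AXL, and a cAMP response element TGACGTCA, a CCAAT box and GC boxes GGGCGG in FN1.
AXL: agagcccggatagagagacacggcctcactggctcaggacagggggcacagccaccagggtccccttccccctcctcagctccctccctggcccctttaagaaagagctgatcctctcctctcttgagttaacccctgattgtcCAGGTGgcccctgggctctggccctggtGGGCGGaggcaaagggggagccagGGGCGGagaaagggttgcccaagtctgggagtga
FN1: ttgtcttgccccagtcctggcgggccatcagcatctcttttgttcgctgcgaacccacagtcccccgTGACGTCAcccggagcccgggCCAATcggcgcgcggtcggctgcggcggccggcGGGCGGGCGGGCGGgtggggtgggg

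In AXL the E-box CAGGTG, the form bound by Snail and ZEB proteins, begins at -106, and the GC boxes, bound by SP1, begin at -78 and -54. In FN1 the cAMP response element begins at -183, the CCAAT box at -162 and, within the printed stretch, 3 GC boxes that overlap each other at -129, -125 and -121. The first of the 2 RefSeq starts of AXL is the one shown. Except for the AXL start not shown, both strands of the 250 bases before each start were searched for 6 motifs. The remaining ones were an AP-1 site TGANTCA and a TATA box TATAAA. Beyond the printed stretch the FN1 window held further GC boxes that begin at -107, -102 and -49. Of 35116 RefSeq promoters, 17.5% held CAGGTG, 1.65% TGACGTCA, 32.0% CCAAT, 42.6% GGGCGG, 6.57% TGANTCA and 10.7% TATAAA. The CD44 window held GC boxes at -170 and -152 and none of the other motifs. A match is a description of the letters, and binding was not measured. SNAI1, SNAI2 and TWIST1 had no entry in the promoter table.

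Other transcription factors of the transition and their helix-loop-helix partners were lower or uncalled. Of 19 genes 15 were tested, and with YKL-5-124 against DMSO 0 were called higher and 5 lower, with a median of -0.29 beside 0.014 over all genes. These were ID1 (117 CPM with YKL-5-124, 212 CPM with DMSO, log2 fold change -0.86 ± 0.059, adjusted p = 1.58e-09), SOX9 (-0.71), TCF3 (-0.59), GSC (-0.83) and ID3 (-0.66). ID1 and ID3 are inhibitors that bind E proteins such as TCF3 and keep them from DNA. SOX9 and GSC are developmental factors. With library size alone as scaling TCF3 was at -0.46 and not called. With samuraciclib 0 were called higher and 3 lower, with a median of -0.31, namely ID1 (130 CPM with samuraciclib, -0.71 ± 0.059), SOX9 (-0.54) and ID3 (-0.64). SOX9 was at -0.451 without DMSO 3 and ID3 at -0.459 without samuraciclib 3, and neither was then called. YKL-5-124 against samuraciclib called 0 of the 15 in either direction, with a median of -0.15. No transition factor on the list was called higher in any comparison. Among all tested genes, calls on the higher side made up 11.9% for YKL-5-124 against DMSO. They made up 8.17% for samuraciclib against DMSO and 4.46% between the inhibitors. Calls on the lower side made up 9.93%, 9.55% and 2.46% in the same order. With 15 genes, 0 higher calls beside shares this small is not a result about the list.

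Among 10 corepressors that Snail and ZEB proteins recruit, no gene passed the fold threshold, and smaller differences went both ways. The histone deacetylase gene HDAC1 was at 171 CPM with YKL-5-124 (-0.34 ± 0.045, adjusted p = 4.93e-06) and 165 CPM with samuraciclib (-0.40 ± 0.045, adjusted p = 1.16e-06), against 217 CPM with DMSO. CTBP2 was at 143 CPM with YKL-5-124 (0.34 ± 0.043, adjusted p = 2.96e-06) and 138 CPM with samuraciclib (0.29 ± 0.043, adjusted p = 2.42e-05), against 113 CPM with DMSO. For both genes the inhibitor libraries did not overlap those of DMSO. The list had 0 genes called by edgeR in any of the 3 comparisons, with medians of 0.019 for YKL-5-124 against DMSO, 0.031 for samuraciclib against DMSO and -0.0083 between the inhibitors. Among 11 regulators of Snail stability, 1 gene was called higher with YKL-5-124 (PRKD1, 6.06 CPM with YKL-5-124 and 4.18 CPM with DMSO). With samuraciclib 1 was called higher (PAK1, 22.7 CPM with samuraciclib and 15.96 CPM with DMSO), and 0 were called between the inhibitors. Both lay near the fold threshold, and PRKD1 was at 0.445 without YKL-5-124 1 and PAK1 at 0.477 without samuraciclib 3 or 0.469 without DMSO 1, not called.

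On the epithelial side CDH1 stood out. E-cadherin is the junction protein whose gene Snail and ZEB factors repress, and CDH1 had 371, 385 and 375 CPM with YKL-5-124, 333, 333 and 324 CPM with samuraciclib, and 185, 183 and 199 CPM with DMSO. No inhibitor library came near the DMSO libraries. CDH1 rose by 1.00 ± 0.047 on the log2 scale with YKL-5-124 (adjusted p = 1.28e-11) and by 0.80 ± 0.047 with samuraciclib (adjusted p = 4.38e-10). P-cadherin, CDH3, rose to 404 CPM with samuraciclib, against 262 CPM with DMSO (0.62 ± 0.046, adjusted p = 5.71e-09), and with YKL-5-124 it was at 363 CPM and inside the threshold (0.47).

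The list around CDH1, 20 factors and markers of the epithelial state, was mostly uncalled. Against DMSO, YKL-5-124 had 3 of them called higher and 0 lower (CDH1, the protease gene ST14 at 0.56, and the epithelial factor OVOL1 at 0.51), with a median of 0.066 beside 0.014. OVOL1 was not called without YKL-5-124 3 (0.429) or DMSO 3 (0.459), and with library size alone 7 were called higher. Samuraciclib called 3 higher (CDH1, CDH3 and ST14) and 1 lower (the plakophilin PKP3, -0.52), with a median of 0.18 beside 0.0012. ST14 was not called without samuraciclib 1 (0.496), samuraciclib 3 (0.485) or DMSO 3 (0.491), nor PKP3 without samuraciclib 2 (-0.485) or DMSO 1 (-0.496). ESRP1, GRHL2, EPCAM and OCLN were in neither count. GRHL2 (0.459 with YKL-5-124, 0.364 with samuraciclib) and OCLN (0.436 and 0.469) were higher and inside the threshold. With library size alone both were called with YKL-5-124 (0.588 and 0.565). ESRP1 was at -0.083 with YKL-5-124 and -0.014 with samuraciclib, and EPCAM at -0.113 and 0.181. Squamous markers had 2 of 10 called higher with YKL-5-124 (CDH1 and the keratin KRT17 at 0.60) and 1 lower (the basal keratin KRT14, -0.5002, or -0.418 and not called without YKL-5-124 3, and -0.469 without DMSO 2), with a median of -0.12 that was 0.0085 with library size alone, and with samuraciclib 2 higher (CDH1 and KRT17) and 0 lower, with a median of 0.16. Between the inhibitors 0 of the 20 epithelial genes were called, and of the squamous markers KRT14 was called lower with YKL-5-124 (-0.77). The counts of these 2 lists stand beside shares over all tested genes of 11.9% higher and 9.93% lower with YKL-5-124 against DMSO. With samuraciclib the shares were 8.17% and 9.55%, and counts this small are not results about a list. A link between the CDH1 and SNAI2 values of the same libraries was not tested.

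Several of fibronectin's receptors and matrix partners were higher with the inhibitors. Of 15 genes 12 were tested, with 4 called higher and 1 lower for YKL-5-124 against DMSO and a median of 0.19, and 5 higher and 1 lower for samuraciclib with a median of 0.36. The integrin subunit gene ITGAV, part of several fibronectin receptors, had 109.7, 108 and 100.3 CPM with YKL-5-124, 115, 119.6 and 112 CPM with samuraciclib, and 61.7, 61.1 and 66.7 CPM with DMSO. It rose by 0.75 ± 0.054 with YKL-5-124 (adjusted p = 2.58e-09) and by 0.87 ± 0.054 with samuraciclib (adjusted p = 7.15e-10). Thrombospondin 1, THBS1, rose to 446 CPM with YKL-5-124 (0.54) and to 557 CPM with samuraciclib (0.86), against 307 CPM with DMSO. Tenascin C, TNC, an adhesion-modulating matrix protein, rose to 12.9 CPM with YKL-5-124 (0.78) and to 18.8 CPM with samuraciclib (1.33), against 7.57 CPM with DMSO. LTBP1, which stores latent TGF-beta in the matrix, was called with YKL-5-124 (7.40 CPM, against 2.83 CPM with DMSO, 1.36 ± 0.15), and ITGA5, the alpha chain of the classical fibronectin receptor, with samuraciclib (54.2 CPM, against 35.1 CPM with DMSO, 0.63 ± 0.060). With samuraciclib LTBP1 was at 4.02 CPM and not called (0.48 ± 0.16, adjusted p = 0.0227), but it passed without samuraciclib 2 (0.521) or DMSO 3 (0.661), with the replicate block (0.501) and in the 6 libraries with high 7SL RNA (0.704), where 6 genes of the list were called higher. ITGB6 was called at 0.55 with samuraciclib, and at 0.485 without DMSO 1 it was not. The crosslinking enzyme gene TGM2 was the 1 called lower in both, at -0.57 with YKL-5-124 (not called without YKL-5-124 2, at -0.434, or DMSO 2, at -0.47) and -1.54 with samuraciclib.

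Between the inhibitors this matrix list had 2 called higher and 3 lower with YKL-5-124, with a median of -0.070. Of all tested genes 4.46% were called higher and 2.46% lower in this comparison. ITGA5 was 37.2 CPM with YKL-5-124 and 54.2 CPM with samuraciclib (-0.55 ± 0.060, adjusted p = 5.28e-06), and ITGB6 (-0.58) and TNC (-0.55) were also lower, TNC at -0.496 and not called without samuraciclib 1. LTBP1 was higher, at 7.40 CPM with YKL-5-124 and 4.02 CPM with samuraciclib (0.88 ± 0.14, adjusted p = 0.000278), as was TGM2 (0.97). FN1 itself was not called between the inhibitors, and whether ITGA5 and FN1 differ in this was not tested.

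Around CD44, called genes of the hyaluronan pathway were lower against DMSO with TMM scaling. Of 16 partners 13 were tested, with 0 called higher and 3 lower for YKL-5-124 against DMSO, namely the hyaluronan-degrading CEMIP (9.05 CPM with YKL-5-124, 16.8 CPM with DMSO, -0.88 ± 0.10), HYAL3 (-0.85) and the hyaluronan synthase HAS2 (0.283 CPM, 1.47 CPM with DMSO, -2.28 ± 0.49). With samuraciclib 0 were called higher and 4 lower, namely the second hyaluronan receptor HMMR, a gene of dividing cells (63.4 CPM with samuraciclib, 94.4 CPM with DMSO, -0.57 ± 0.060), HYAL3 (-0.995), HYAL1 (-0.55, or -0.486 and not called without samuraciclib 2) and HAS2 (-1.67). The list medians were 0.085 and -0.075, beside 0.014 and 0.0012 over all genes, so most partners did not share these calls. HAS2 rested on few counts, with 6, 10 and 3 with YKL-5-124, 15, 3 and 10 with samuraciclib, and 29, 36 and 22 with DMSO. The linker proteins EZR, RDX and MSN, which tie CD44 to actin, were not called with either inhibitor. Between the inhibitors HYAL1 was the 1 called, higher with YKL-5-124 (6.05 CPM) than with samuraciclib (3.04 CPM), by 0.99 ± 0.14.

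The other TAM receptors and ligands gave little beside AXL. In this list of 5, with AXL in it, TYRO3 was the 1 called with YKL-5-124 (12.3 CPM with YKL-5-124, 17.7 CPM with DMSO, -0.53 ± 0.097), and without YKL-5-124 1 it was at -0.478 and not called. With samuraciclib AXL was the 1 called. The ligand gene GAS6 was at 17.4 CPM with YKL-5-124, 19.4 CPM with samuraciclib and 16.2 CPM with DMSO, and PROS1 at 9.25 CPM with YKL-5-124, 8.39 CPM with samuraciclib and 7.49 CPM with DMSO, neither of them called. MERTK was under 1 CPM in all 3 groups. Between the inhibitors 0 of the 5 were called.

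Partners of vimentin and N-cadherin, 10 tested of 12, had 1 called higher and 2 lower with YKL-5-124 against DMSO and 0 with samuraciclib, where SYNM was called without samuraciclib 2 (0.538) and CDH4 without samuraciclib 1 (-1.06). Synemin, SYNM, an intermediate filament protein, rose to 11.8 CPM with YKL-5-124, against 7.27 CPM with DMSO (0.69 ± 0.13). The mesenchymal cadherin genes CDH11 (2.45 CPM, 4.59 CPM with DMSO, -0.89 ± 0.20) and CDH4 (0.556 CPM, 1.42 CPM with DMSO, -1.32 ± 0.33) fell with YKL-5-124. CDH4 rested on few counts, with 9, 17 and 11 with YKL-5-124 and 28, 23 and 38 with DMSO. Against samuraciclib, CDH11 (2.45 CPM with YKL-5-124, 4.47 CPM with samuraciclib, -0.84 ± 0.20) and CDH13 (13.6 CPM with YKL-5-124, 19.5 CPM with samuraciclib, -0.52 ± 0.088) were lower with YKL-5-124, as CDH2 was, although CDH13 was not called without YKL-5-124 3 (-0.496) or samuraciclib 3 (-0.495). The medians were -0.015 (0.11 with library size alone), 0.043 and -0.068 for YKL-5-124 against DMSO, samuraciclib against DMSO and YKL-5-124 against samuraciclib. Over all tested genes, in the same order, 11.9%, 8.17% and 4.46% were called higher. Those called lower made up 9.93%, 9.55% and 2.46%.

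The partial transition list of HNSCC, 33 genes tested of 34, was split in direction. It shares ITGA5, ITGB1, ITGB6, TNC, THBS1 and LTBP1 with the fibronectin list, CDH13 with the cadherin list and VIM with the members. Calls of these shared genes are the same calls counted again. YKL-5-124 against DMSO called 8 of the 33 higher and 6 lower, beside 11.9% and 9.93% of all tested genes, with a median of 0.057. Samuraciclib called 9 higher and 4 lower, beside 8.17% and 9.55% of all tested genes, with a median of 0.071. Higher genes included P4HA2, which hydroxylates collagen (30.9 CPM with YKL-5-124, 29.8 CPM with samuraciclib and 14.3 CPM with DMSO), and the actin-binding TPM1 (119 CPM with YKL-5-124, 106 CPM with samuraciclib and 61.8 CPM with DMSO) and ACTN1 (1397 CPM with YKL-5-124, 1398 CPM with samuraciclib and 893 CPM with DMSO). Lower genes included the collagenase MMP1, at 23.8 CPM with YKL-5-124 (-1.59 ± 0.066), 17.1 CPM with samuraciclib (-2.07 ± 0.069) and 71.7 CPM with DMSO, and the hemidesmosome collagen COL17A1 (231 CPM with YKL-5-124, 217 CPM with samuraciclib and 344 CPM with DMSO). Compared with samuraciclib, YKL-5-124 had 3 genes of the list called higher and 6 lower, beside 4.46% and 2.46% of all tested genes. The median was 0.00088. The lower ones included podoplanin, PDPN (5.34 CPM with YKL-5-124, 9.37 CPM with samuraciclib, -0.80 ± 0.13), and the gelatinase MMP2 (-0.76), and the higher ones MMP10 (0.71) and TIMP3 (0.64), of which TIMP3 was at 0.543 and not called without YKL-5-124 3.

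**Figure D4:**
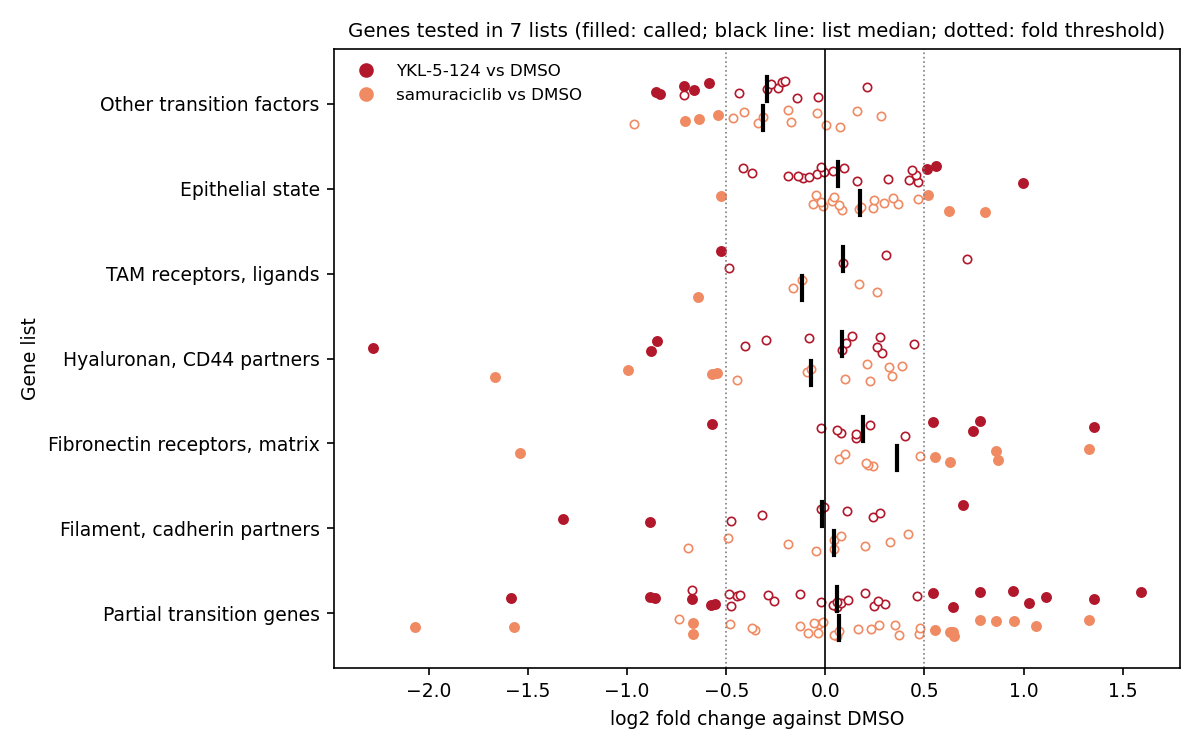
Log2 fold change against DMSO (horizontal axis) of every tested gene in 7 gene lists (rows), with YKL-5-124 above samuraciclib in each row, filled points for called genes, open points for the others, a black line at the list median and dotted lines at the fold threshold of 0.5. Filled points of the other transition factors and their partners lie only on the lower side, 5 with YKL-5-124 and 3 with samuraciclib. With both inhibitors they include ID1 and ID3, which inhibit E proteins. The fibronectin row has 4 and 5 on the higher side and 1 each on the lower.

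For the 5 members above a mean of 10 CPM, the 3 genes whose log2 CPM followed the member most closely over the 9 libraries were looked up among 8916 genes, with the groups and libraries shared by all points. They were NPM1, NUP58 and KPNB1 for CD44 (Pearson r = 0.998, 0.997 and 0.997), CPA4, RTL10 and RAPGEFL1 for AXL (0.996, 0.996 and 0.995), and SLC25A30, ENO2 and ZNF148 for SNAI2 (each 0.989). For FN1 they were PDGFB, ITGAV and PDXDC1 (0.994, 0.994 and 0.992), of which ITGAV is the fibronectin receptor gene described above. CDH2 was followed by TIPARP, DPYSL3 and AIF1L (0.967, 0.966 and 0.966). These are descriptions of likeness across 9 libraries in 3 groups and carry no test.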

How the data were processed

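Messenger RNA of 9 FaDu cultures was sequenced in read pairs, with 3 biological replicates per group per the methods of the study and 1 batch per the labels. Per the labels and methods, reads were aligned to GRCh38 with HISAT2 and assigned with featureCounts 2.0.6. The annotation release and strand setting are not given in the sources used here. The deposited values are whole counts per gene with no normalization, beside a gene length in bases.

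The members and gene lists were chosen with earlier results of these data known. All 10 members are named, and list genes are named where called or where they define the list. The filter on low counts was filterByExpr (edgeR 4.0.16, R 4.3.3), which kept 16065 of 58929 genes, and 25347 had no count. Counts were scaled by TMM and tested in 1 fit of the 9 libraries (glmQLFit and glmQLFTest, two-sided, Benjamini-Hochberg over all tested genes). SE is the log2 fold change over the root of F. The biological coefficient of variation was 0.0631. DESeq2 1.42.0, other scalings, filters and thresholds, a replicate block and leaving out libraries were tried, and scripts were tested on simulated data. No 2 libraries of the same group agreed within sampling noise. Same-numbered libraries of YKL-5-124 and samuraciclib deviated together (r = 0.11, 0.331 and 0.248, all above 0.1, with no label behind the pairing). The libraries with low RN7SL2 (YKL-5-124 2, samuraciclib 2 and DMSO 3) also deviated together. DMSO 3 had r = 0.256 with YKL-5-124 2 and 0.253 with samuraciclib 2, although their numbers differ. A block by replicate number does not model that split. Figures were drawn with matplotlib 3.10.9.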

Additional observations from a re-analysis of the deposited data

How the results depend on the processing

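Under DESeq2, RLE or upper quartile factors and library size alone, no member changed direction or lost its call. With library size alone the median of all genes moved to 0.14 for YKL-5-124 against DMSO, with 1052 genes called lower (1595 with TMM) and 72.7% of calls higher (54.5% with TMM). For samuraciclib against DMSO 57.1% of calls were higher (46.1% with TMM), and between the inhibitors 79.5% (64.5%), with 253 called lower (395 with TMM). Of the list genes named above, TCF3, TYRO3, TGM2, KRT14 and COL17A1 with YKL-5-124 against DMSO were not called with library size alone. The same held for SOX9, PKP3, HYAL1 and CDH5 with samuraciclib against DMSO, and for ITGA5, TNC and CDH13 between the inhibitors.

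With the adjusted p alone, genes called higher and lower numbered 3878 and 4041 for YKL-5-124 against DMSO, 3381 and 3706 for samuraciclib against DMSO, and 1888 and 2115 between the inhibitors, against 1911 and 1595, 1312 and 1535, and 717 and 395 with the fold threshold. Members were then 1 higher (FN1) and 4 lower for YKL-5-124, 2 higher and 4 lower for samuraciclib, and 1 higher and 3 lower between the inhibitors. In the same order, 49.3%, 44.1% and 24.9% of all tested genes passed. With glmTreat, which tests against the fold threshold, the gene counts were 696 and 762, 411 and 571, and 38 and 33, with 1 member lower for samuraciclib and 0 between the inhibitors. A mean count of at least 50 left 1218 genes higher for YKL-5-124 and 1 member lower for samuraciclib, since ZEB1 was no longer tested. The 6 libraries with high 7SL RNA also left 1 member lower for samuraciclib.

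The replicate block gave 1897 and 1597 genes for YKL-5-124 against DMSO, 1282 and 1543 for samuraciclib and 709 and 392 between the inhibitors, and it changed no member's call. Against DMSO, same-numbered libraries had correlations from -0.146 to 0.127, so those pairs share only a number. A block fit with only the groups compared, added after seeing the data, gave 1882 and 1532, 1189 and 1496, and 788 and 428.

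Leaving out each library in turn, the log2 fold change of SNAI1 for YKL-5-124 against DMSO ranged from -0.0893 to 0.357, that of TWIST1 for samuraciclib from -0.019 to 0.125, and that of VIM between the inhibitors from -0.22 to 0.354. The called members kept their direction, with -0.927 to -0.792 for SNAI2, -0.84 to -0.787 for CD44 and 0.658 to 0.728 for FN1 with YKL-5-124, and -0.673 to -0.604 for AXL, 0.803 to 0.858 for FN1 and -1.78 to -0.854 for ZEB1 with samuraciclib. CDH2 between the inhibitors ranged from -0.683 to -0.586, and glmTreat did not call it (adjusted p = 0.507). The causes were not tested. Depth limits ZEB1, VIM and ZEB2, with at most 28 counts in a library. Counts were also low for the called list genes HAS2 and CDH4, which were not tested with a mean count of at least 50.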

Other observations

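An endothelial marker stood well above the others in this carcinoma line. CDH5, the gene of VE-cadherin, was at 26.4 CPM with YKL-5-124 (24.8 to 27.6), 21.1 CPM with samuraciclib (18.7 to 23.0) and 29.96 CPM with DMSO (29.2 to 31.0), while the endothelial receptor genes KDR and TEK were at 0 in every library. VWF, the gene of von Willebrand factor, was at 0.685 CPM with YKL-5-124, 0.884 CPM with samuraciclib and 0.905 CPM with DMSO. The log2 fold change of CDH5 with samuraciclib against DMSO was -0.50 ± 0.081 (edgeR, adjusted p = 5.69e-05). It was not called without samuraciclib 3 (-0.423), without DMSO 3 (-0.478) or in the 6 libraries with high 7SL RNA (-0.496). The call was also lost with library size alone (-0.445), upper quartile factors (-0.46) and a mean count of at least 50 (-0.483).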
